A study of Mus musculus with 2 samples.

Results

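The genes described here are 10 transcriptional outputs of fibroblast growth factor (FGF) and extracellular signal-regulated kinase (ERK) signaling, chosen by name: *Spry1*, *Spry2*, *Spry4*, *Spred1*, *Spred2*, *Dusp4*, *Dusp6*, *Etv4*, *Etv5* and *Ccnd1*. All 10 were found among the 27998 genes of both count matrices. The 2 single-cell RNA sequencing (scRNA-seq) libraries came from whole lungs of wild-type C57BL/6 mice, 2 weeks old, reared from birth to postnatal day 14 either at 21% O2, called room air, or at 80% O2, called hyperoxia, an exposure used to model bronchopulmonary dysplasia. Each library was a pool of lung cells from 8 mice, so there was 1 sample per group and no animal-to-animal spread could be measured. Differences between the libraries are therefore given without a test, and every interval is a 95% interval that covers counting error only. The study looked for key molecules of hyperoxic lung injury. It reported higher FGFR1 and downstream pathways in hyperoxic lung endothelial cells (ECs). The pathways came from enrichment analysis of bulk RNA sequencing of isolated ECs, and FGFR1 also from scRNA-seq, qPCR and western blot. The 10 genes are among the usual readouts of FGFR1 signaling.

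When an FGF binds its receptor, the adaptor FRS2 and RAS and the kinases RAF and MEK pass the signal to ERK, which enters the nucleus and induces a set of early target genes. Several of those targets act back on the pathway. Sprouty proteins (*Spry1*, *Spry2*, *Spry4*) and Spred proteins (*Spred1*, *Spred2*) restrain signaling at the level of RAS and RAF, and the dual-specificity phosphatases encoded by *Dusp4* and *Dusp6* remove the activating phosphates from ERK and related kinases. *Etv4* and *Etv5* encode ETS transcription factors that carry FGF signals in the developing lung, and *Ccnd1* encodes cyclin D1, which drives entry into the cell cycle with CDK4 and CDK6. Other growth factor receptors, such as the VEGF, EGF and PDGF receptors, use the same cascade.

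After filtering, 3680 cells remained in the room air library and 10472 in the hyperoxia library, with medians of 8067 and 7262 unique molecular identifiers (UMIs). The libraries shared 13 cell barcodes among the kept cells. Cells were named by cluster from marker genes, and 15 cell types had at least 50 cells in each library: 8 endothelial, epithelial and stromal types and 7 immune types. Levels are given as CPM, the UMIs of a gene summed over all cells of a type and scaled to a fixed total (counts per 1e+06 UMIs). All 118 markers of these types that could be looked up were detected in their own type, the lowest being *Dkk2* with 48.3 CPM in the artery-like cells. The clusters had been named from these marker lists, so this is no check of the names. In gCap-like cells, 92.1% of the room air cells lay in 1 cluster and 51.5% of the hyperoxia cells in another, and each of these clusters came almost entirely from 1 library. The libraries also lay in separate clusters for alveolar fibroblast-like cells and alveolar macrophage-like cells, so library and cluster cannot be told apart there. The split was partial in other types: clusters of which at least 90% came from 1 library held 51.9% and 43.5% of the myofibroblast-like cells of room air and hyperoxia, 26.4% and 57.4% of the aCap-like cells and 14.2% and 47.4% of the AT2-like cells. The other clusters are called shared, and they were examined after the data had been seen. A ratio of hyperoxia over room air is called past 1.5-fold only where the mean of both libraries was at least 10 CPM.

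The 10 genes had different homes in the lung. In room air *Spry1* was highest in the myofibroblast-like cells (412 CPM, 396 to 430), followed by AT1-like cells (319.6 CPM, 277 to 367) and AT2-like cells (178 CPM, 162 to 196). It was 61.5 CPM in aCap-like and 37.1 CPM in gCap-like cells, and in B-like cells it was 2.32 CPM. *Spry4* had its highest levels elsewhere. It was 169.5 CPM (147 to 194) in aCap-like, 154 CPM (134 to 177) in pericyte-like and 144 CPM (133 to 154) in gCap-like cells, 3 values whose intervals overlapped, and only 3.30 CPM in AT2-like cells. *Spry2* was spread over both compartments, with 137 CPM in AT2-like, 133 CPM in pericyte-like and 128 CPM in AT1-like cells of room air, which also could not be told apart.

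*Spred1* was found in all 8 endothelial, epithelial and stromal types. Pericyte-like cells held the highest level (315 CPM, 286 to 347, in room air), clear of the next, aCap-like cells (158 CPM, 136 to 182). *Spred2* and *Dusp4* both peaked in aCap-like cells. The room air levels of *Spred2* were 107 CPM (89.5 to 127) in aCap-like and 22.6 CPM (18.6 to 27.1) in gCap-like cells, and those of *Dusp4* 32.4 CPM (23.0 to 44.3) and 3.53 CPM. *Dusp6* was the reverse within the capillary endothelium: 295 CPM (280 to 310) in gCap-like against 135 CPM (115 to 158) in aCap-like cells. It was found widely, with at least 26.6 CPM in each of the 15 types of both libraries.

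*Etv4* and *Etv5* marked few cells. *Etv5* was 403 CPM (378 to 429) in AT2-like cells of room air, far above the next type, AT1-like cells with 56.4 CPM (39.5 to 78.1). *Etv4* reached 10 CPM in the pericyte-like and the myofibroblast-like cells and in no other compared type, at 16.5 CPM (10.3 to 24.9) and 16.0 CPM (12.8 to 19.7). Its UMIs numbered 0 in the aCap-like and the AT2-like cells of room air, where a count of 0 still allows up to 2.49 and 1.24 CPM. *Ccnd1* was highest in the capillary cells, with 745 CPM (697 to 795) in aCap-like and 357 CPM (340 to 373) in gCap-like cells, then 152 CPM in AT2-like, 119.6 CPM in myofibroblast-like and 88.1 CPM in interstitial macrophage-like cells. Artery-like cells, with 74.5 CPM, were below these.

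**Figure D1:**
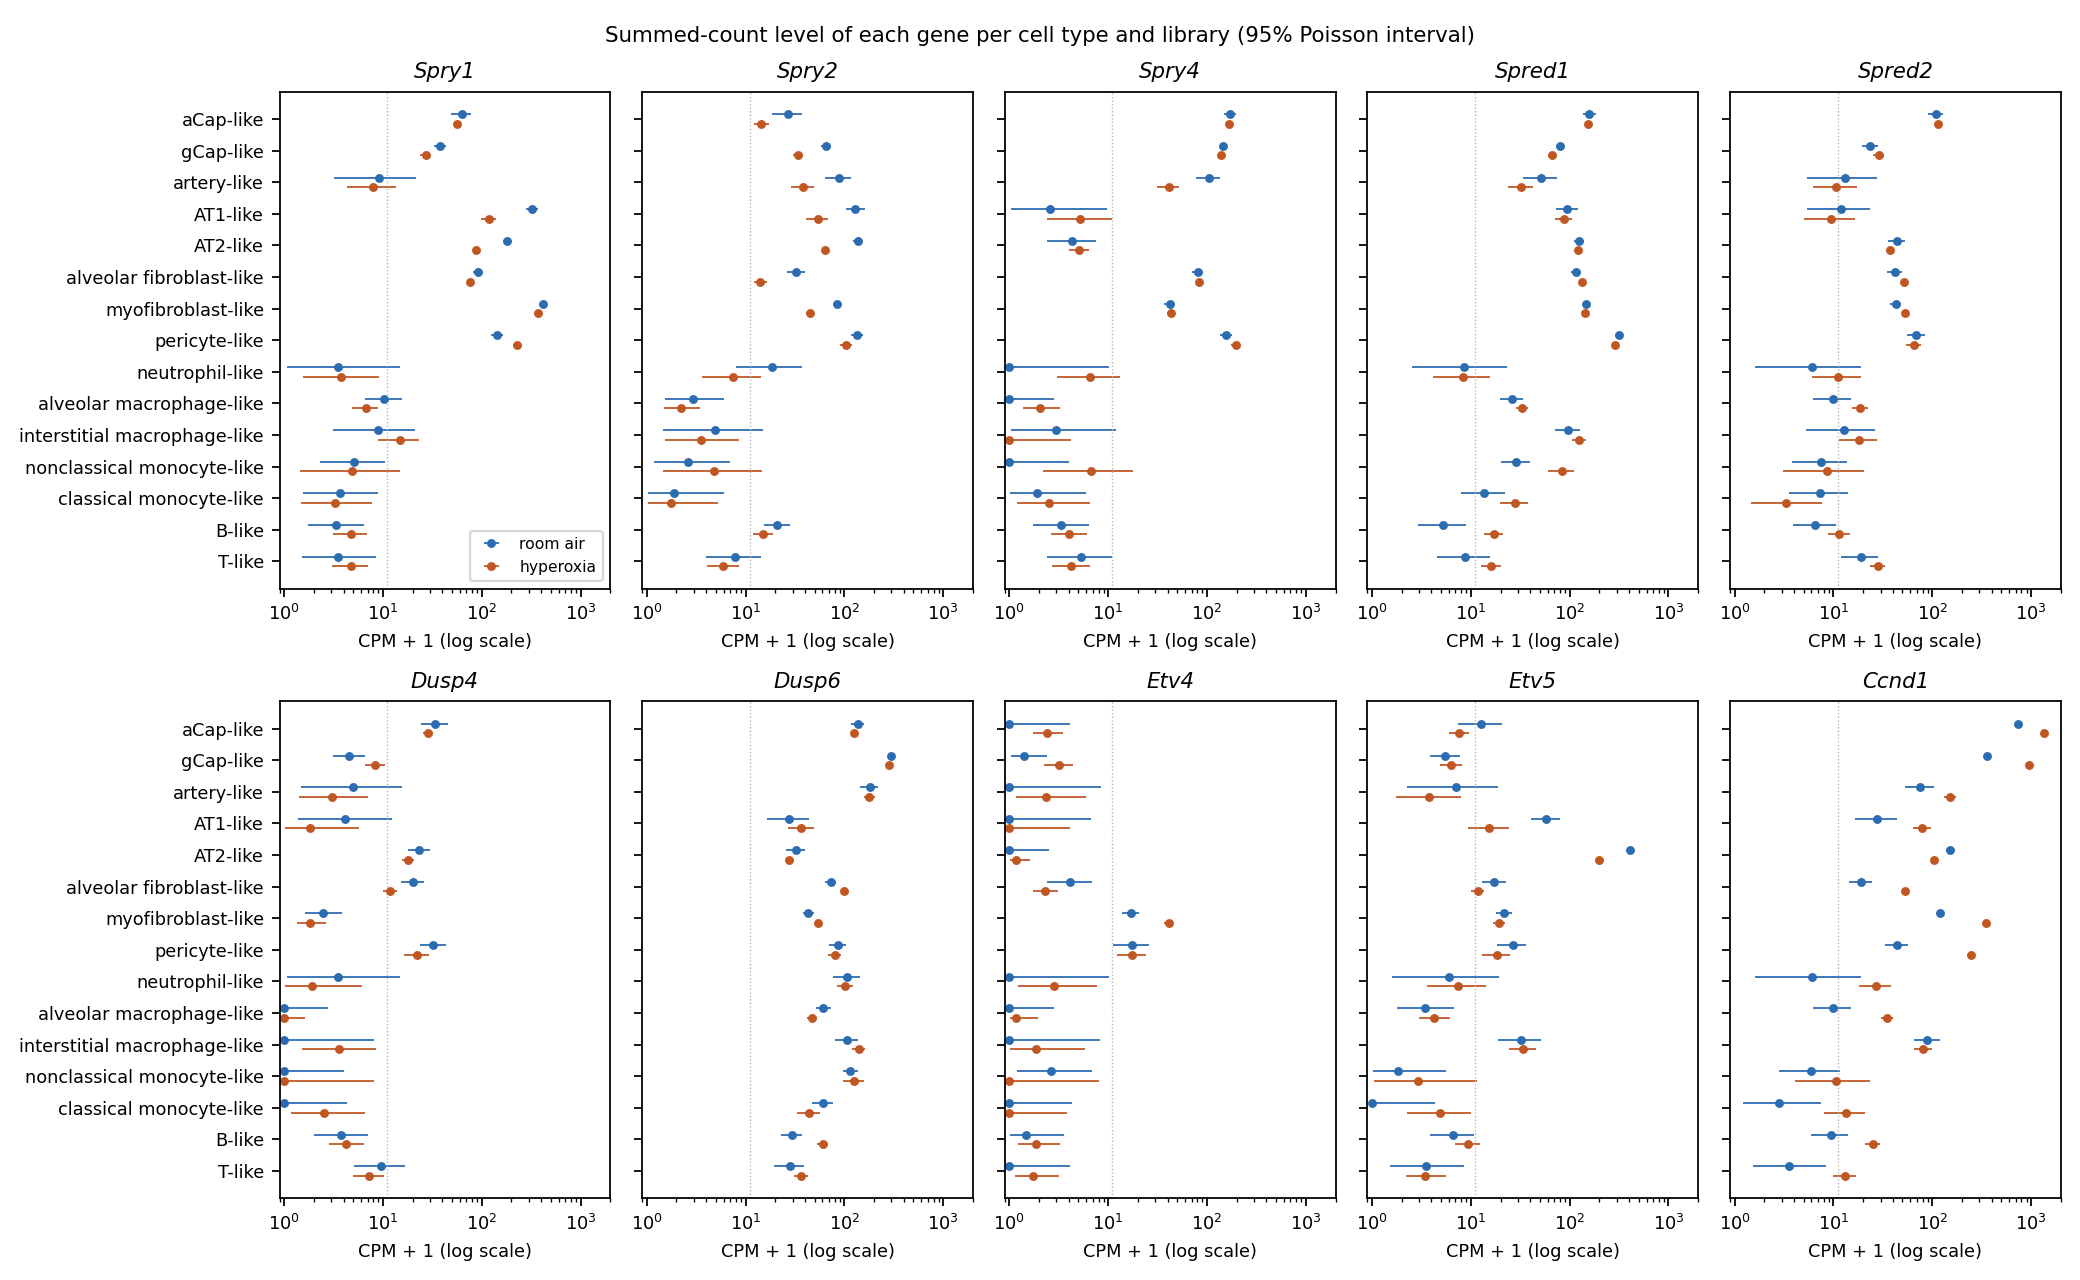
Level of each of the 10 genes (CPM + 1, log axis) in the 15 cell types compared, for room air (blue) and hyperoxia (orange). Points are summed-count levels, bars are 95% Poisson intervals and the dotted line marks 10 CPM. *Ccnd1* sits to the right in hyperoxia in nearly every type and *Spry2* to the left, while the pairs of points of *Dusp6* mostly coincide.

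Cell types with under 50 cells in a library were not compared, and 2 of them held high values. NK-like cells (49 and 132 cells) had more *Spry2* than any compared type: 479 CPM (413 to 554) in room air against 409 CPM (359 to 463) in hyperoxic lungs. The NK-like cells had 0 UMIs of *Spry1* in both libraries. In vein-like cells (34 and 113 cells) *Ccnd1* was 41.1 CPM (23.0 to 67.8) in room air against 563 CPM (525 to 603) in hyperoxic lungs.

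Between the libraries, 63 of the 80 pairs of a gene and an endothelial, epithelial or stromal type reached 10 CPM. Hyperoxia was higher past 1.5-fold in 9 of them and lower in 15, and the other 39 lay between. Of all genes tested in each of these 8 types, between 5.54% (myofibroblast-like) and 15.7% (artery-like) were higher. Between 5.54% (myofibroblast-like) and 14% (artery-like) were lower. Most of the pairs past 1.5-fold belonged to 2 genes that went opposite ways. *Ccnd1* was higher in 7 of the 8 types and *Spry2* lower in 7 of the 8. Of the 5608 genes tested in all 8 types, 0.321% were higher in at least 7 and 0.446% were lower in at least 7. *Dusp6* and *Spred2* were past 1.5-fold in none of their 8 and 7 types, and *Spry4* and *Spred1* only in artery-like cells.

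**Figure D2:**
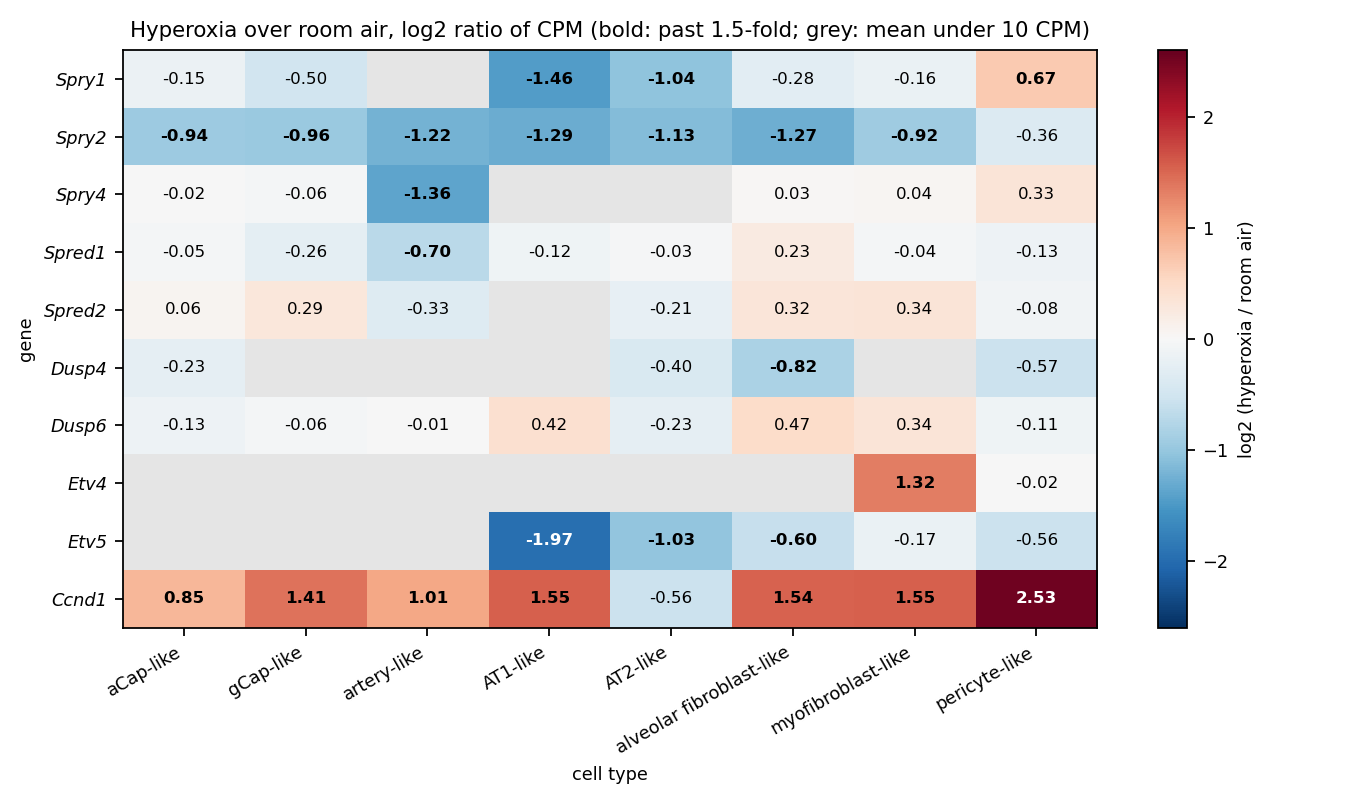
Hyperoxia over room air as the log2 of the CPM ratio, for each gene (rows) in the 8 endothelial, epithelial and stromal types (columns). Bold values are past 1.5-fold and grey cells had a mean under 10 CPM. The *Ccnd1* row is positive except in AT2-like cells (-0.56) and the *Spry2* row is negative throughout.

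*Ccnd1* had the largest differences. In pericyte-like cells it was 42.7 CPM (32.3 to 55.3) in room air against 247 CPM (226 to 270) in the hyperoxic lungs, log2 2.53 (2.13 to 2.95). In myofibroblast-like cells the levels were 119.6 CPM (111 to 129) and 351 CPM (340 to 364), a log2 ratio of 1.55 (1.43 to 1.68). Alveolar fibroblast-like cells started lower and had a similar ratio, from 18.1 CPM (13.5 to 23.6) to 52.4 CPM (48.4 to 56.6), log2 1.54 (1.13 to 1.97). In each of these stromal types the intervals of the libraries lay far apart.

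In the endothelium *Ccnd1* was 745 CPM in room air against 1347 CPM (1322 to 1372) in hyperoxic lungs for aCap-like cells, a log2 ratio of 0.85 (0.76 to 0.95). For gCap-like cells it was 357 and 949 CPM (928 to 971), a log2 ratio of 1.41 (1.34 to 1.49), with fold differences that were not the same size in both capillary types. In the shared clusters alone, *Ccnd1* was 208 and 563 CPM in 34 and 132 gCap-like cells, log2 1.44 (0.64 to 2.37), and the aCap-like log2 ratio was 0.78. The gCap-like value of the shared clusters rests on few UMIs of room air, where *Spred2* had 0 CPM. Of the 10 leading genes of that gCap-like cluster, 1 was a gCap marker. Artery-like cells had 74.5 CPM (52.5 to 103) and 150.0 CPM (131 to 171), log2 1.01 (0.50 to 1.55). The arterial value rests on 37 UMIs of room air. It was under 1.5-fold with 4 of the alternatives, between -0.091 and 0.35, the lowest with the listed genes kept in the clustering. With each cell thinned to 2000 UMIs, 39.7% (35.8 to 43.7, exact binomial) of the gCap-like cells of room air and 67.9% (64.7 to 70.9) of those of hyperoxia had a UMI of *Ccnd1*. At full depth these shares were 67.0% and 85.9%. Thinning left out 43 of the 657 and 29 of the 919 gCap-like cells.

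The epithelium was divided. AT1-like cells had 26.6 CPM of *Ccnd1* (15.5 to 42.6) in room air against 78.1 CPM (63.0 to 95.8) in hyperoxic lungs, a log2 ratio of 1.55 (0.80 to 2.39). The summed endothelial markers of the AT1-like cells were 47.0 and 138 CPM, and their part in this value was not tested. AT2-like cells went the other way, from 152 CPM (137 to 168) to 103 CPM (97.3 to 109), log2 -0.56 (-0.73 to -0.39), which is short of 1.5-fold.

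In the immune types, *Ccnd1* is given beside the endothelial markers found in the same cells. In B-like cells *Ccnd1* was 8.36 CPM in room air against 24.0 CPM in hyperoxic lungs, and the summed endothelial markers were 326 and 425 CPM. Per 100 CPM of endothelial markers, B-like cells thus had 2.56 CPM of *Ccnd1* in room air and 5.65 in hyperoxia, and gCap-like cells 2.87 and 7.68. Neutrophil-like cells had 3.13 and 9.12, classical monocyte-like cells 3.39 and 9.09 and T-like cells 1.12 and 4.78. Nonclassical monocyte-like cells had 2.62 and 3.29, with little difference between the libraries. The room air levels of *Ccnd1* behind these ratios were low and rest on few UMIs. They were 5.04 CPM in neutrophil-like, 1.80 CPM in classical monocyte-like, 2.55 CPM in T-like and 4.90 CPM in nonclassical monocyte-like cells. At 2000 UMIs, 1.34% and 3.64% of the B-like cells had a *Ccnd1* UMI, with median depths of 4592 and 2949.5 UMIs before thinning. These levels cannot be told apart from free RNA of ECs, whose part was not tested. Alveolar macrophage-like cells had 8.85 CPM (5.25 to 13.99) and 34.0 CPM (29.5 to 39.1) of *Ccnd1*, log2 1.94 (1.24 to 2.73), and 11.3 and 33.0 per 100 CPM of endothelial markers. Interstitial macrophage-like cells had the highest level of the immune types, with 88.1 CPM (64.2 to 118) in room air, 80.1 CPM (64.6 to 98.1) in hyperoxia and ratios of 68.2 and 71.0 per 100 CPM of endothelial markers.

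Other cell cycle genes were high in some of the cells with more *Ccnd1* and low in others. Of 11 genes of replication and mitosis, 3 were tested in gCap-like cells, where *Mcm5* (log2 1.11) and *Mcm2* (log2 0.93) were past 1.5-fold higher, and the summed level of the 11 was 124 CPM in room air against 178 CPM in hyperoxic lungs. This sum leaves out a dividing endothelial cluster nearest to gCap, led by *Cenpf*, *Mki67* and *Top2a*, which stayed unnamed. That cluster held 40 cells of room air and 47 of hyperoxia, beside 909 and 2313 named ECs. The sum therefore does not describe all dividing ECs. In pericyte-like cells the sum was 66.7 and 135 CPM, and in myofibroblast-like cells, where *Ccnd1* was also higher, it was 80.7 and 45.2 CPM. Among the partners and inhibitors of D cyclins, *Cdkn1a*, the CDK inhibitor p21, was higher in all of these cells: 120.3 and 1098 CPM in gCap-like, 21.0 and 771 CPM in pericyte-like and 48.9 and 955 CPM in myofibroblast-like cells. *Ccnd2*, which encodes cyclin D2, was 344 and 524 CPM in gCap-like cells and 653 and 1118 CPM in pericyte-like cells. *Ccnd3* was 123 and 214 CPM in gCap-like cells.

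**Figure D3:**
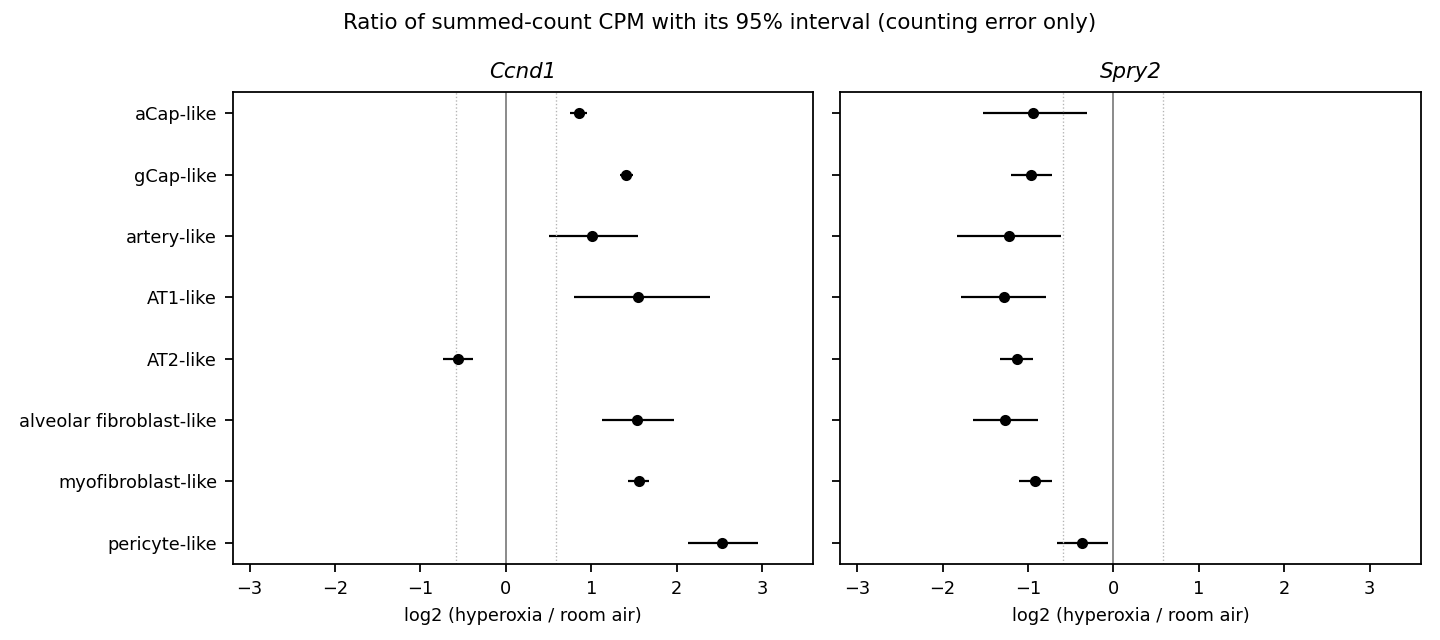
Hyperoxia over room air (log2 ratio of CPM) of *Ccnd1* (left) and *Spry2* (right) in 8 cell types, with 95% intervals for counting error. The solid line is no difference and the dotted lines are 1.5-fold. *Ccnd1* ranges from -0.56 in AT2-like to 2.53 in pericyte-like cells, and *Spry2* from -1.29 in AT1-like to -0.36 in pericyte-like cells.

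Among the feedback inhibitors, *Spry2* was past 1.5-fold in the most types. AT2-like cells had 137 CPM (122 to 152) in room air against 62.2 CPM (57.8 to 66.9) in the hyperoxic lungs, log2 -1.13 (-1.32 to -0.94). In gCap-like cells it was 64.3 CPM (57.6 to 71.7) and 33.0 CPM (29.1 to 37.2), log2 -0.96 (-1.2 to -0.72), and in myofibroblast-like cells 82.5 CPM (75.1 to 90.4) and 43.7 CPM (39.6 to 48.1), log2 -0.92 (-1.11 to -0.72). The intervals of the libraries did not meet in any of these 3 types. Alveolar fibroblast-like cells had a log2 ratio of -1.27 (-1.64 to -0.88), artery-like cells of -1.22 (-1.83 to -0.61) and aCap-like cells, on 31 and 113 UMIs, of -0.94 (-1.52 to -0.31). As a mean over single cells the aCap-like value was -0.55, under 1.5-fold. Pericyte-like cells had the smallest difference of *Spry2*, 133 CPM (114 to 154) and 104 CPM (90.2 to 119), log2 -0.36 (-0.66 to -0.07). At 2000 UMIs, 13.2% (10.6 to 16.1) of the gCap-like cells of room air and 7.08% (5.48 to 8.97) of those of hyperoxia had a UMI of *Spry2*, against 3.21% and 2.81% of B-like cells. Of the aCap-like cells, 4.27% and 2.67% had one, no more than B-like cells within counting error. In the shared clusters, the log2 ratio of *Spry2* was -0.34 (-1.90 to 1.66) in gCap-like cells and -0.74 (-1.55 to 0.11) in aCap-like cells, so the capillary difference was not detectable there at this depth, while in AT2-like cells it was -1.07.

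*Spry4* and *Spry1* had other patterns. *Spry4* was 169.5 and 168 CPM (159 to 177) in aCap-like cells, log2 -0.02 (-0.23 to 0.20), and 144 and 138 CPM (130 to 146) in gCap-like cells, log2 -0.06 (-0.19 to 0.08). In the shared clusters the aCap-like log2 ratio was -0.34 (-0.65 to -0.02), lower in hyperoxia, and the gCap-like one -0.20 (-0.99 to 0.70). In artery-like cells *Spry4* was 103 CPM (76.5 to 135) and 39.9 CPM (30.3 to 51.6), log2 -1.36 (-1.93 to -0.79). *Spry1* was past 1.5-fold in pericyte-like cells, where it was higher in hyperoxia (143 and 228 CPM, log2 0.67, 0.43 to 0.92), and in both alveolar epithelial types, where it was lower. In myofibroblast-like cells, its richest source, it was 412 and 368 CPM (356 to 381), log2 -0.16 (-0.24 to -0.09).

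The mix of Sprouty transcripts differed between cell types. UMIs are read from the 3′ end of a transcript, so no length correction was made, and shares of UMIs may also carry differences in capture between the genes. Of the Sprouty UMIs (*Spry1*, *Spry2* and *Spry4* together) of aCap-like cells, *Spry4* made up 66.0% (60.4 to 71.3, exact binomial) in room air and 70.9% (68.8 to 72.9) in hyperoxia. In gCap-like cells its share was 58.6% (55.8 to 61.4) and 70.0% (67.6 to 72.3), while that of *Spry2* was 26.3% (23.8 to 28.8) and 16.7% (14.9 to 18.7). AT2-like cells had almost no *Spry4*, 1.04% and 2.67% of their Sprouty UMIs. There *Spry1* was 56.0% (52.4 to 59.5) and 56.6% (54.3 to 58.9), so the mix was alike in both libraries although both genes were at lower levels in hyperoxia. Myofibroblast-like cells were dominated by *Spry1*, with 77.0% and 81.1%.

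**Figure D4:**
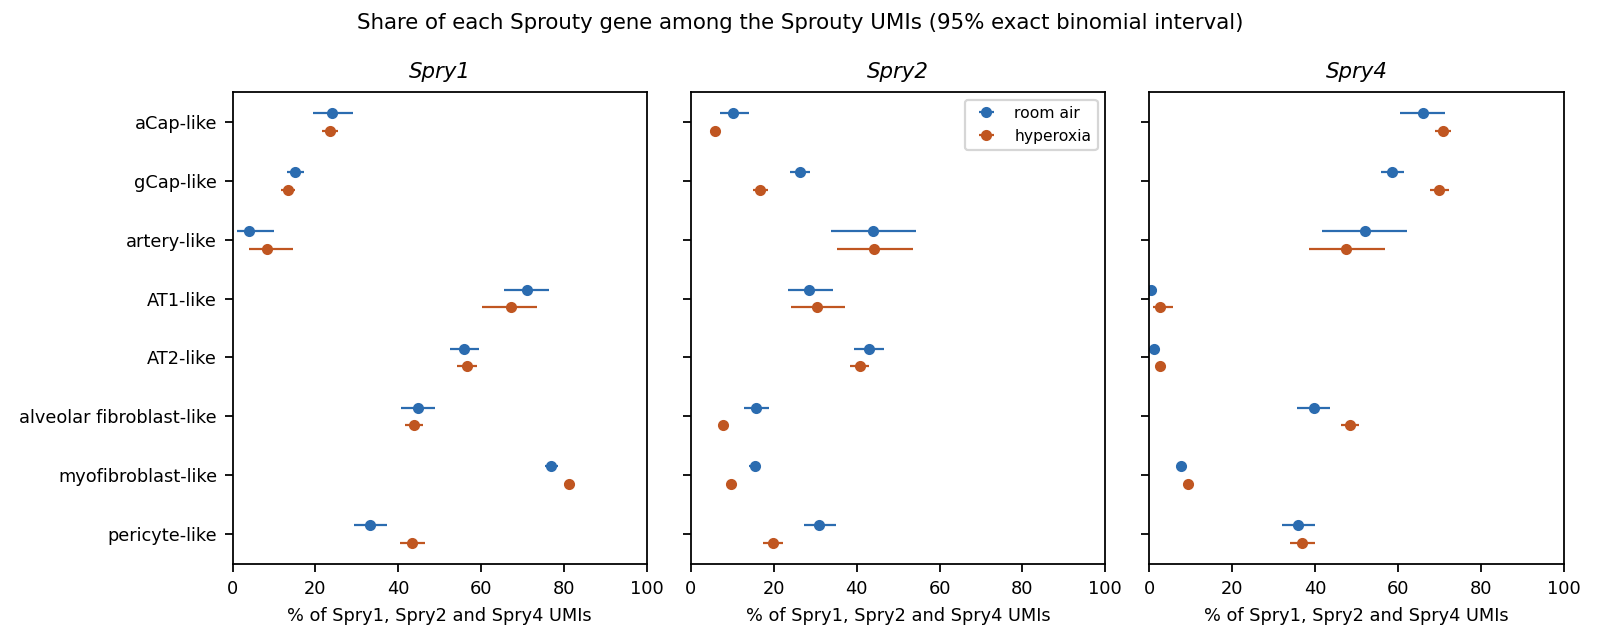
Share of *Spry1*, *Spry2* and *Spry4* (panels) among the UMIs of these 3 genes in 8 cell types, for room air (blue) and hyperoxia (orange), with exact 95% binomial intervals. *Spry4* holds 58.6% to 70.9% in both capillary types and at most 2.67% in both alveolar epithelial types.

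In both alveolar epithelial types *Spry1*, *Spry2* and *Etv5* were lower in hyperoxia. In AT2-like cells, which make surfactant, 3 of the 8 genes tested were lower (7.25% of all genes tested there) and 0 higher (6.57%). *Etv5* was 403 CPM in room air against 197 CPM (189 to 205) in the hyperoxic lungs, log2 -1.03 (-1.14 to -0.92), and *Spry1* was 178 and 86.4 CPM (81.2 to 91.9), log2 -1.04 (-1.21 to -0.88). The median log2 ratio of the 8 was -0.48, and that of all genes in these cells 0.02. *Spred1* was 123 and 121 CPM, and *Dusp6* 31.4 and 26.7 CPM. In AT1-like cells, the flat gas exchange cells, 3 of 6 genes were lower (12.3% of all genes) and 1 higher (12.0%). There *Etv5* had 56.4 CPM in room air against 14.4 CPM (8.41 to 23.1) in hyperoxic lungs, log2 -1.97 (-2.89 to -1.10), on 36 and 17 UMIs. That value was under 1.5-fold with each library clustered on its own (-0.27) and with each cell named by its own marker score (-0.24). *Spry1* in AT1-like cells had 319.6 and 116 CPM (97.7 to 138), log2 -1.46 (-1.78 to -1.14).

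Genes upstream of them were also lower in AT2-like cells. *Fgfr2*, the main epithelial FGF receptor, was 281 CPM in room air against 186 CPM in hyperoxic lungs (log2 -0.59), *Fgfr3* was 23.9 and 11.6 CPM (log2 -1.04) and the ligand gene *Fgf1* 83.0 and 44.9 CPM (log2 -0.89). These were the 3 members of the FGF ligand and receptor list that could be tested there. *Met*, the hepatocyte growth factor receptor, was 147 and 93.3 CPM (log2 -0.66), *Erbb2* 22.7 and 14.2 CPM (log2 -0.68) and *Egfr* 12.4 and 7.73 CPM (log2 -0.68). In contrast, of 21 adaptor and cascade genes tested in AT2-like cells 1 was higher, *Map2k1* (log2 0.67), and 0 were lower. The summed level of the 11 cell cycle genes in AT2-like cells was 147 CPM in room air against 51.0 CPM in hyperoxic lungs, and its part in these values was not tested.

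The bases just upstream of the start sites of genes that were lower together in the alveolar epithelium, and of *Dusp6*, which was not, are shown for comparison of their sequence. They are the 200 bases before the annotated start (RefSeq, GRCm38.p6), 5′ to 3′ on the strand of the gene, and the capitals mark GGAA, the core bound by ETS factors such as ETV5, or its reverse complement TTCC.
Spry2 (chr14:105896820-105897019, minus strand): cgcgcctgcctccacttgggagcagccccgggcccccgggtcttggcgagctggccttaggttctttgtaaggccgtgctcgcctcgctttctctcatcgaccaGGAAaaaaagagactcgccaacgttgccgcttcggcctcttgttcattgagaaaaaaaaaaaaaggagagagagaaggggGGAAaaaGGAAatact
Spry1 (chr3:37639747-37639946, plus strand): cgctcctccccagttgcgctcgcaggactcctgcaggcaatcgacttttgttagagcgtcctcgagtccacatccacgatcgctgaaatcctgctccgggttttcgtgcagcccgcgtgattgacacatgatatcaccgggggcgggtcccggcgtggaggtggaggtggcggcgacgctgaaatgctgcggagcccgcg
Etv5 (chr16:22439571-22439770, minus strand): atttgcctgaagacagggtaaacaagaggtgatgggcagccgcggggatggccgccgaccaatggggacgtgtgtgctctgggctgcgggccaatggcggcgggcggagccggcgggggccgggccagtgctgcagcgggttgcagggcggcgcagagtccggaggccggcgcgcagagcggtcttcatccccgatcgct
Dusp6 (chr10:99263031-99263230, plus strand): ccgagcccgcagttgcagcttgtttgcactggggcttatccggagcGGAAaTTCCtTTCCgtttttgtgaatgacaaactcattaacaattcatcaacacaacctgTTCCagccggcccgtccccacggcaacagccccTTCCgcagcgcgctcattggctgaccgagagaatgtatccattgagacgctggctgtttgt
GGAA or TTCC occurred 3 times in the *Spry2* stretch, 5 times in that of *Dusp6* and 0 times in those of *Spry1* and *Etv5*. A second annotated start of *Etv5* (chr16:22438369-22438568) had 1. Of 32851 annotated promoters, 89.0% held it in the same window. The longer form CCGGAA or TTCCGG was in 0 of these 4 stretches and in 10.7% of all promoters. A match is a description of the letters only, and nothing was measured at these sites.

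What the study reported on FGFR1 concerned ECs. Of 8 tested in aCap-like cells, 1 was higher (8.75% of all genes tested there) and 1 lower (9.25%), and of 7 in gCap-like cells 1 was higher (6.70%) and 1 lower (9.77%). In both types these were *Ccnd1* and *Spry2*. *Dusp6*, whose product acts on ERK in the cytoplasm, was 295 and 283 CPM (271 to 294) in gCap-like cells, log2 -0.06 (-0.16 to 0.03), and 135 and 124 CPM (117 to 132) in aCap-like cells, log2 -0.13 (-0.37 to 0.12). In the shared clusters *Dusp6* was past 1.5-fold lower in aCap-like cells, 124 and 74.3 CPM, log2 -0.73 (-1.10 to -0.36), and in gCap-like cells its log2 ratio was 0.02 (-0.63 to 0.73). *Spred1* was 158 and 153 CPM in aCap-like cells, log2 -0.05 (-0.27 to 0.18). The highest capillary value of *Etv4* or *Etv5* was 11.6 CPM.

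All named ECs were also taken as 1 group. Of 8 genes tested, 3 were higher in hyperoxia (7.02% of all genes) and 1 lower (8.75%). Besides *Ccnd1* (382 and 1029.7 CPM), the higher ones were *Spred2*, with 35.1 and 62.1 CPM, log2 0.82 (0.63 to 1.02), and *Dusp4*, with 8.16 and 15.3 CPM, log2 0.91 (0.51 to 1.34). Within aCap-like cells the log2 ratio of *Spred2* was 0.06 (-0.20 to 0.34) and that of *Dusp4* -0.23 (-0.73 to 0.30), and within gCap-like cells that of *Spred2* was 0.29 (-0.04 to 0.63). *Dusp4* in gCap-like cells was 3.53 and 7.36 CPM, under the 10 CPM needed for a call, with a log2 ratio of 1.06 (0.28 to 1.91). Both genes are richest in aCap-like cells, which were 16.3% (13.9 to 18.8) of the named ECs of room air and 47.8% (45.7 to 49.8) of those of hyperoxia. *Dusp6*, richest in gCap-like cells, had a log2 ratio of -0.38 (-0.46 to -0.30) over all ECs.

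Other genes of the pathway differed in gCap-like cells in both directions. Among 9 other ERK outputs, *Emp1* (446 and 743 CPM, log2 0.74) and *Epha4* (103 and 162 CPM, log2 0.66) were higher and *Dusp5*, a nuclear ERK phosphatase induced by VEGF, was lower (31.0 and 13.6 CPM, log2 -1.19). *Kit* was 502 and 251 CPM (log2 -1.0) and *Flt4*, the receptor for VEGF-C, 88.1 and 49.9 CPM (log2 -0.82). *Kit* is also a gCap marker that was counted among the leading genes when the gCap-like clusters were named. Among the FGF receptors *Fgfr3* was 23.0 and 93.9 CPM (log2 2.03), *Fgfr2* 31.0 and 32.0 CPM and *Fgfr1* 9.42 and 12.9 CPM (log2 0.46). Immediate early genes, which also respond to tissue dissociation, were 1 higher and 0 lower of 13 tested in gCap-like cells.

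To ask whether ECs with *Fgfr1* differed in these outputs, ECs with at least 1 *Fgfr1* UMI were set against those with none, within each library. The paper places the hyperoxic increase of *Fgfr1* mainly in aCap cells. Here 43 aCap-like cells of room air had a *Fgfr1* UMI and 105 had none, against 357 and 748 in hyperoxia. For gCap-like cells the numbers were 44 and 613 in room air and 89 and 830 in hyperoxia. These counts were taken at full depth, and the libraries held unlike numbers of cells: 148 and 1105 aCap-like and 657 and 919 gCap-like cells. The counts alone therefore do not show a change of *Fgfr1* per cell. Positive cells were deeper: in aCap-like cells of room air the medians were 10285 and 5289 UMIs, in gCap-like cells 8836 and 7228. *Ccnd1* was higher in the *Fgfr1*-positive cells of room air, with 520.1 against 342 CPM in 44 and 613 gCap-like cells, log2 0.61 (0.40 to 0.81), and 870.2 against 653 CPM in 43 and 105 aCap-like cells, log2 0.41 (0.22 to 0.61). In hyperoxia the log2 ratios were 0.06 (-0.04 to 0.16) in gCap-like and 0.00 (-0.06 to 0.05) in aCap-like cells. The depth of the cells and the cell source of *Fgfr1* UMIs moved with this split, and their part was not tested. Among cells with no UMI of 6 stromal genes, the room air ratio was -0.23 in aCap-like and 0.78 in gCap-like cells, and the hyperoxia ratio in gCap-like cells 0.39 (0.23 to 0.54). For *Spry4* and *Dusp6* the log2 ratios of positive over negative cells lay between -0.31 and 0.37 in both types and libraries, and for *Spred1* between -0.09 and 0.23. Some cleared counting error in aCap-like cells of hyperoxia. *Dusp6* (-0.31, -0.49 to -0.13) and *Spry4* (-0.19, -0.34 to -0.03) were lower in positive cells there. *Spry1* (0.34, 0.07 to 0.61) and *Spred1* (0.20, 0.04 to 0.36) were higher. With no stromal UMI, only the *Spred1* interval of these 4 excluded no difference. In the 11 and 47 aCap-like cells of room air with no stromal UMI, the log2 ratios were 1.09 (0.32 to 1.85) for *Spry4* and -0.76 (-1.81 to 0.19) for *Spred1*.

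**Figure D5:**
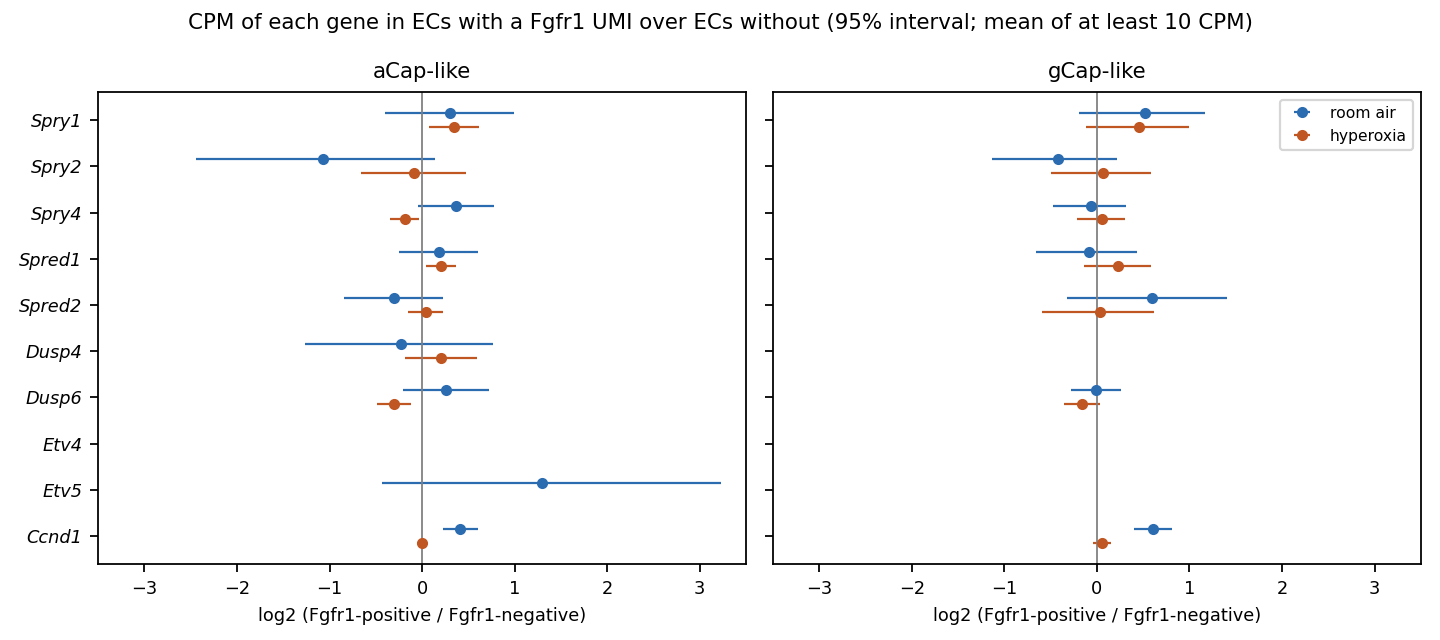
The log2 ratio of CPM in ECs with a *Fgfr1* UMI over ECs without, for each gene with a mean of at least 10 CPM, in aCap-like (left) and gCap-like (right) cells of room air (blue) and hyperoxia (orange), with 95% intervals for counting error. *Ccnd1* of room air lies to the right of 0 in both panels (0.41 and 0.61).

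In artery-like cells (56 and 151 cells) 15.7% of all genes tested were higher and 14% lower, the largest shares among the 8 endothelial, epithelial and stromal types. There 1 of 6 genes was higher (*Ccnd1*) and 3 were lower: *Spry2*, *Spry4* and *Spred1*, the last with 50.3 and 31.0 CPM and an interval that included no difference, log2 -0.70 (-1.44 to 0.07). *Dusp6* was 179 and 178 CPM in these cells. *Fgfr1* was 22.2 and 59.8 CPM. Its room air value rests on few UMIs, since a count of 0 still allows up to 6.04 CPM in those cells.

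*Etv4* was past 1.5-fold in 1 type. In myofibroblast-like cells, the contractile cells of the growing septa, it was 16.0 CPM (12.8 to 19.7) in room air against 39.9 CPM (36.0 to 44.2) in hyperoxic lungs, log2 1.32 (0.99 to 1.68), on 88 and 381 UMIs. In the shared clusters the myofibroblast-like log2 ratio of *Etv4* was 1.10 (0.68 to 1.55). There *Etv5* was past 1.5-fold lower, -0.63 (-1.05 to -0.21), against -0.17 (-0.52 to 0.18) in all myofibroblast-like cells. In pericyte-like cells *Etv4* was 16.5 and 16.3 CPM. Of 9 genes tested in myofibroblast-like cells 2 were higher (*Etv4* and *Ccnd1*, against 5.54% of all genes) and 1 lower (*Spry2*, against 5.54%). These cells also had more of the ligand genes *Fgf9* (41.7 and 79.2 CPM, log2 0.92), *Fgf18* (204 and 319 CPM, log2 0.65) and *Fgf2* (38.3 and 59.8 CPM, log2 0.64), and less *Fgfr2* (27.6 and 18.1 CPM, log2 -0.60).

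In pericyte-like cells 2 of the 10 genes were higher (*Ccnd1* and *Spry1*, against 9.19% of all genes) and 0 lower (11.5%). Their immediate early genes were higher as well, 7 of 13 tested, with *Zfp36* at 137 and 404 CPM (log2 1.56) and *Fosb* at 297 and 598 CPM (log2 1.01), and their part was not tested. In alveolar fibroblast-like cells, 1 of 9 genes was higher (*Ccnd1*, against 8.26%) and 3 were lower (7.17%). Those were *Spry2*, *Dusp4* (19.1 and 10.8 CPM, log2 -0.82, -1.28 to -0.34) and *Etv5* (16.4 and 10.8 CPM, log2 -0.60, -1.09 to -0.10). The *Etv5* value was -0.55, under 1.5-fold, with no doublets removed and with each library clustered on its own. In the same cells 10 of 13 immediate early genes were higher, led by *Atf3* (38.5 and 96.6 CPM, log2 1.33), and *Pdgfra* was 124 and 327 CPM (log2 1.40). *Dusp6* was 71.6 and 99.2 CPM (93.8 to 105) there, log2 0.47 (0.26 to 0.69).

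*Spred1* was past 1.5-fold higher in 4 immune types. B-like cells had 4.18 CPM (1.91 to 7.93) and 16.1 CPM (12.7 to 20.3), log2 1.95 (0.95 to 3.13), and T-like cells 7.65 and 15.1 CPM, log2 0.98 (-0.04 to 2.18), which was under 1.5-fold with 3 of the alternatives. Nonclassical monocyte-like cells had 27.8 CPM (19.2 to 38.8) in room air against 82.4 CPM (59.6 to 111) in hyperoxic lungs, log2 1.57 (0.89 to 2.26), on 34 and 43 UMIs, and classical monocyte-like cells 12.6 and 26.8 CPM, log2 1.09 (0.16 to 2.1). In nonclassical monocyte-like cells 5 of 13 immediate early genes were higher, against 13.8% of all genes. *Dusp6* in B-like cells was 28.3 CPM (21.7 to 36.4) and 59.3 CPM (52.5 to 66.8), log2 1.07 (0.66 to 1.49), and 8 of 13 immediate early genes were higher in these cells, against 8.12% of all genes. The part of the immediate early genes was not tested. In alveolar macrophage-like cells the median log2 ratio of all genes was -0.24, and that of *Dusp6* (60.5 and 46.4 CPM) was -0.38, close to that shift. *Etv5* was 31.3 and 32.7 CPM in interstitial macrophage-like cells.

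The genes whose levels followed each member most closely over the 15 types of both libraries (30 points, Pearson r of log2(CPM + 10), 7727 genes compared) were cell type genes in the main. *Spry4* ran with *Gng11* (r = 0.98), *Tmem204* and *Nid1* (both 0.96). *Etv4* ran with the contractile genes *Des* (0.97), *Actg2* and *Cnn1* (both 0.96), and *Etv5* with *Epha7* (0.92), *Ehf* and *Ppp1r14c* (both 0.90). *Spry1* was closest to *Fat1* (0.93), *Tpm1* and *Gpx8* (both 0.92), and *Ccnd1* to *Arhgef12* (0.90), *Nkd1* (0.88) and *Adgrl2* (0.87). *Spry2* was closest to *Ttll7* (0.90), *Trim2* and *Zfp266* (both 0.89). *Spred1* had *Acvr2a*, *Gab1* (both 0.88) and *Zfhx3* (0.87), and *Dusp6* had *Acvrl1* (0.82), *Hip1* and *Cpd* (both 0.81). *Spred2* was closest to *Sccpdh* (0.86), *Ccdc68* and *Camk2n1* (both 0.85). *Dusp4* was closest to *Ccdc68* (0.84), to *Spred2* itself (0.82) and to *Mapt* (0.79).

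Among the 10 genes, the closest pairs were *Spred2* and *Dusp4* (r = 0.82), *Spry1* and *Spred1* (0.80) and *Spry1* and *Spry2* (0.77), and the least alike were *Dusp6* and *Etv5* (-0.36). The points share their libraries and cell types, so these values describe where the genes are found and carry no test.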

How the data were processed

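Lungs were digested and pooled, and per the labels droplet libraries of the 3′ ends were made. The authors deposited UMI counts per gene and cell barcode for each library, not normalized. The sources differ on the Cell Ranger version (6.1.1 in the protocol, 2.1.1 in the processing notes, 3.1.0 in the file header) and on the kit version, and reads were demultiplexed with bcl2fastq 2.20.

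From these counts, barcodes with under 500 genes or over 20% mitochondrial UMIs were removed, as were predicted doublets (0.8% per 1000 barcodes: 129 of room air and 1239 of hyperoxia), found by similarity to simulated doublets. Both libraries were clustered together without the listed genes (2000 variable genes, 30 principal components, 20 neighbours, Leiden resolution 1), first into lineages and then into types. A cluster was named where at least 3 markers were raised and its 10 leading genes did not go against the name. This naming rule was tightened after the clusters had first been seen, and 1651 cells stayed unnamed. Counts were summed per type and library and given as CPM. Intervals are exact Poisson for levels, exact binomial for shares and exact conditional for ratios. No test between the groups was made, each being 1 library. The members and gene lists were chosen with earlier results of these data known. Besides the 10 members, *Fgfr1* and *Fgfr2*, the text names the 3 genes most like each member and at most 4 genes per list past 1.5-fold with the largest log2 ratios. The adaptor and cascade list of ECs is not reported here. The interval script was tested on simulated counts. Alternatives covered doublets, filters, clustering, naming, scaling and thresholds. Python 3.11.15, numpy 2.4.6, pandas 2.3.3, scipy 1.17.1, scikit-learn 1.9.0, leidenalg 0.10.2, igraph 0.11.9 and matplotlib 3.10.9 were used.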

Additional observations from a re-analysis of the deposited data

How the results depend on the processing

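Over 11 alternatives, 1201 of 1275 log2 ratios of a member in a cell group stayed within the counting interval of the value reported and reversed no value past 1.5-fold. The sign differed in 93 of the 1275, and in 3 of these the value reported was past 1.5-fold. These 3 were *Ccnd1* in artery-like cells with the listed genes kept in the clustering (-0.091), and *Spry1* in interstitial macrophage-like cells as a mean over single cells (-0.32) or with each library clustered on its own (-0.33). *Etv5* in all epithelial cells was -0.34, and 1.72 with double the doublets removed. In that setting AT1-like and AT2-like cells could not be given, so the make-up of the epithelial group differed and the 2 values do not describe like cells. In cells with no UMI of the 6 stromal genes, 11 of 47 ratios of the *Fgfr1* split had the other sign, among them *Ccnd1* in aCap-like cells of room air (-0.23) and, past 1.5-fold before, *Etv5* in the same cells (-0.50). The 7 types with higher *Ccnd1* stayed within 1.5 times of that count throughout, but not all 7 could be counted each time. Artery-like and AT1-like cells could not be compared with no doublets or double the doublets removed. In artery-like cells *Ccnd1* was under 1.5-fold with 4 alternatives. The types with lower *Spry2* numbered 4 with double the doublets removed, where 3 types could not be compared, 4 at a mean of at least 50 CPM and 4 at 2-fold. Members higher in all ECs numbered 1 at 50 CPM and 1 at 2-fold, and lower 0 at 50 CPM. In aCap-like cells, members higher numbered 2 with no filter and 0 at 2-fold, and members lower 2 with double the doublets removed, 2 with another denominator, 2 with no filter, 0 at 50 CPM and 0 at 2-fold. In gCap-like cells, members higher numbered 3 with no filter, and members lower 2 with double the doublets removed, 2 as a mean over single cells, 0 at 50 CPM and 0 at 2-fold. In AT2-like cells 1 member was higher with no filter. Apart from thresholds, filters and the lost types, the cause was not tested. Artery-like, AT1-like, AT2-like or interstitial macrophage-like cells could not be given under some alternatives, since fewer than 50 cells were left in a library or no cluster took the name. The values in clusters of which under 90% came from 1 library were chosen after seeing the data. No paired analysis was possible because each group is 1 library.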
